A study of Homo sapiens with 9 samples.

Results

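Metallothionein and zinc transport genes were followed in HaCaT, a human keratinocyte line that divides without limit. The 8 genes, taken by symbol from the 20263 genes of the count table, are MT2A, MT1X, MT1E, MT1F and MT1G (metallothioneins), MTF1 (a zinc-sensing transcription factor), SLC30A1 (a zinc exporter) and SLC39A10 (a zinc importer). The labels give 9 libraries in 3 groups of 3. Control cells are labelled Blank and wild type, melanosome cells were treated with melanosomes, the pigment organelles that melanocytes hand to keratinocytes, and glabridin cells received melanosomes and glabridin, an isoflavan of licorice root. All groups are of the same line, the glabridin group carries melanosomes as the melanosome group does, and no group received glabridin alone. The sources used here do not give dose, exposure time or where the melanosomes came from.

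Metallothioneins are small cytosolic proteins whose cysteines bind zinc and copper, and they buffer the free level of these metals. When zinc rises, MTF1 moves to metal response elements (MREs) in promoters and switches on metallothionein genes and SLC30A1, whose product ZnT1 carries zinc out of the cell. SLC39A10 encodes ZIP10, which carries zinc into the cell and whose gene MTF1 is known to repress. In epidermis, metallothioneins are known mainly from the basal, dividing keratinocytes.

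The coding sequences of the 5 metallothionein genes are shown first because their likeness bears on how reads could be assigned. All 5 lie on chromosome 16 (GRCh38) between 56608199 and 56684196, a span of 76.0 kb. MT2A is at 56608199 to 56609497, MT1E at 56625475 to 56627112, MT1F at 56657694 to 56660698, MT1G at 56666731 to 56668065 on the minus strand, and MT1X at 56682424 to 56684196. MTF1 lies on chromosome 1 at 37809567 to 37859620 and SLC30A1 at 211571568 to 211578742, both on the minus strand, and SLC39A10 on chromosome 2 at 195575977 to 195737702. The spliced coding sequence of each principal GENCODE transcript, without the stop codon, is given 5′ to 3′ with the cysteine codons in capitals.

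MT2A: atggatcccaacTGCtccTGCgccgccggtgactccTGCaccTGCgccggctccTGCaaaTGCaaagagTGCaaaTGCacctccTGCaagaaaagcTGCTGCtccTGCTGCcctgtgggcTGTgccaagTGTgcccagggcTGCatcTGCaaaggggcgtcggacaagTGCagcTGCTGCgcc
MT1X: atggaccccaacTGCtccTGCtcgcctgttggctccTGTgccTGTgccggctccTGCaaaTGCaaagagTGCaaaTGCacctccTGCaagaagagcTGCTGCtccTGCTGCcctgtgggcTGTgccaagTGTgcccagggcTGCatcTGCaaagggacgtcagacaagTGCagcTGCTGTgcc
MT1E: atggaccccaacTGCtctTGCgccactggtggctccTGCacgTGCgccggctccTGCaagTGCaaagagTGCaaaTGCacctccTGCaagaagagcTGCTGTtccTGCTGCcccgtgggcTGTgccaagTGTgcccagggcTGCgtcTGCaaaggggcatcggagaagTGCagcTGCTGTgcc
MT1F: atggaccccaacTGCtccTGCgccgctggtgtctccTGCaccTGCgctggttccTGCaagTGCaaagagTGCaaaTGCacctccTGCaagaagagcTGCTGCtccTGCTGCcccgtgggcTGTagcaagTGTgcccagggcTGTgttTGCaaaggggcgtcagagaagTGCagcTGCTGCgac
MT1G: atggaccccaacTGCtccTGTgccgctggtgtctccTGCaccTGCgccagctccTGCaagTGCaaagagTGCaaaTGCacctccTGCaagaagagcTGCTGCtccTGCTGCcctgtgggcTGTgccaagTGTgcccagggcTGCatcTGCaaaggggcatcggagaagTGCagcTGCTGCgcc

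Each sequence has 61 codons, of which 20, or 32.8%, are for cysteine. Identity between coding sequences ran from 88.5% (MT1F and MT1X) to 95.1% (MT1G and MT2A). The whole transcripts are less alike. Of the 150-base windows of the principal transcript, 5.6% in MT1X and none in the other 4 genes recurred in a transcript of another gene. With 75-base windows the shares were 31.6% for MT1X, 6.6% for MT1G, 0.8% for MT1E and 0.0% for MT1F and MT2A. The 75-base MT1X windows recurred in AC026461.1, which overlaps MT1X on the same strand, in MT1G and in a pseudogene. The values of MT1X, and the few counts of MT1G, are therefore uncertain as to which copy they came from, since no source used here gives the counting rule.

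Promoter sequences follow because MTF1 is known to act through MREs. The RefSeq promoter table (GRCh38.p14) held windows for 5 of the 8 genes, and none for MT1E, MT1F and MT1G. The 250 bases before the start site are printed for 3 genes, with matches to the MRE core in capitals. The core was searched on both strands as TGCACNC or TGCGCNC. Start sites here are those of RefSeq, which differ from the GENCODE gene bounds given above. The MT2A window lies wholly and the MT1X and MTF1 windows partly within the GENCODE gene. The SLC30A1 window begins upstream of the GENCODE start without reaching it. Both SLC39A10 windows lie wholly within the GENCODE gene, beginning at 195656708 and 195656976 where the gene begins at 195575977.

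MT2A (chr16:56608334-56608583, + strand): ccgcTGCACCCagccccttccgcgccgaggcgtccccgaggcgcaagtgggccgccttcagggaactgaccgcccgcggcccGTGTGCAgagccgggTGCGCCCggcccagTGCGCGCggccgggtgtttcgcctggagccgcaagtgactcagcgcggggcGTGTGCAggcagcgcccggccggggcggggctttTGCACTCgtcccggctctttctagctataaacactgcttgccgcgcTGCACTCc
MT1X (chr16:56682220-56682469, + strand): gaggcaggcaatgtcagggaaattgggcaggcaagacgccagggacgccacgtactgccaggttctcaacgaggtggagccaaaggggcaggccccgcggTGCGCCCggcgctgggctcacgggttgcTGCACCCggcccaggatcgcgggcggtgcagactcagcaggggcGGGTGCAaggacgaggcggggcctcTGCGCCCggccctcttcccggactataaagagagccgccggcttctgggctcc
SLC30A1 (chr1:211579162-211579411, - strand): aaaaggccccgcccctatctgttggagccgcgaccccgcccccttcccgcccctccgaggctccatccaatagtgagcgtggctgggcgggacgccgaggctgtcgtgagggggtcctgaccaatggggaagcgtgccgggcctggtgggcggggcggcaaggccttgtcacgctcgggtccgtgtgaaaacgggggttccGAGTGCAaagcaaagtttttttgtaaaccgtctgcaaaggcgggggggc

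The MT2A window held 7 matches, the MT1X window 4 and the SLC30A1 window 1, while the windows of MTF1 and SLC39A10 held 0. Of the 35116 promoter windows of this length in the table, 24.8% had at least 1 match, 0.37% had at least 4 and 0.03% had at least 7. The antioxidant response element, searched on both strands as TGACNNNGC or TGAGNNNGC, matched once in the windows of MT2A and SLC30A1 and at 2 places in that of MT1X. Of all windows, 23.9% had at least 1 match of this element and 3.53% had at least 2. No match of this element overlapped an MRE match in these windows. A match describes letters and does not show that a factor was bound.

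**Figure D1:**
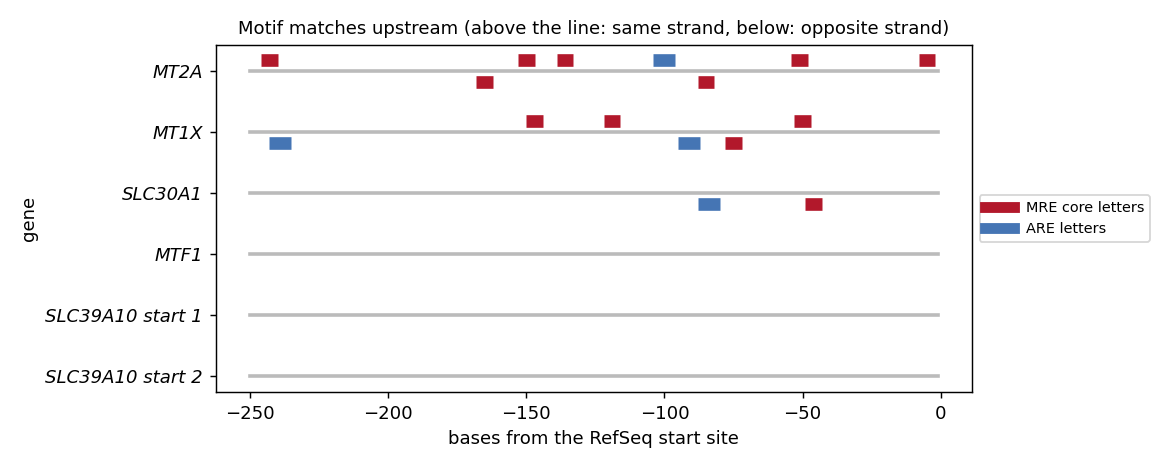
Positions of matches to the MRE core (red) and to the antioxidant response element (ARE, blue) in the 250 bases before the RefSeq start sites, in bases from the start site. The 7 MRE matches of MT2A and the 4 of MT1X stand against 1 in SLC30A1 and 0 in MTF1 and in both windows of SLC39A10.

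Deposited counts per library totalled 39653425 to 46690787. Levels are given as CPM, counts scaled to a common library size, on TMM-scaled library sizes, and as the authors' TPM, the length-scaled unit, where genes are compared with each other. Keratinocyte markers were present in every library: the summed level of 12 such genes was 13790 to 13893 CPM in control, 11292 to 11970 CPM in melanosome and 8538 to 10621 CPM in glabridin libraries. Much of this fall was in KRT5 (means of 5202, 3546 and 2249 CPM), while KRT14 had means of 2731, 3131 and 2321 CPM. With melanosomes 3 of the 12 were called higher and 8 lower, against 29.5% and 33.0% of all tested genes. With glabridin against melanosome 2 were higher and 3 lower, against 23.7% and 20.2%. The 18 melanocyte markers summed to 98.1 to 99.6 CPM in control and to 3264 to 3394 CPM in melanosome libraries. ERBB3 made up most of the control sum, at a mean of 89.8 CPM, and fell with melanosomes (log2 fold change -0.57 ± 0.07 SE). PMEL made up most of the melanosome sum, at a mean of 2109 CPM. In the glabridin group the 18 markers summed to 2228, 3561 and 1839 CPM in replicates 1, 2 and 3. Against the melanosome group, 6 of the 18 were called lower and 0 higher there. Of all tested genes, 20.2% were lower and 23.7% higher in that comparison. Of these 18, 6 (KIT, OCA2, PAX3, SLC24A5, TRPM1 and TYR) had 0 counts in all control libraries, and none was at 0 in any other library. Summed fibroblast markers (8 genes) were at 42.3 to 45.5 CPM in control, 18.8 to 20.3 CPM in melanosome and 12.9 to 14.8 CPM in glabridin libraries. That sum followed DCN (means of 32.0, 5.77 and 3.01 CPM), while LUM was 8.86-fold higher with melanosomes (edgeR adjusted p = 2.26e-05) and COL1A1 was not called there (log2 fold change 0.03 ± 0.14 SE). Of 6 leukocyte markers, PTPRC and TYROBP had 0 counts in every library, and the summed level was 57.3 to 61.6, 69.5 to 77.7 and 105.9 to 119.4 CPM in the same order. CD68 made up most of it (means of 53.7, 69.1 and 109.2 CPM), whereas CD14 had means of 5.40, 4.39 and 3.75 CPM and was called lower in glabridin than in control (log2 fold change -0.53 ± 0.16 SE, edgeR adjusted p = 0.0124). In such bulk libraries, fewer cells of a type and less RNA per cell cannot be told apart.

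The order of the 8 genes by TPM was the same in the 3 groups. In control it ran from MT2A (866 ± 6.97 TPM, SD, n = 3) through MT1X (544 ± 14.3 TPM), MT1E (158 ± 4.73 TPM), MT1F (22.8 ± 2.84 TPM), SLC30A1 (12.1 ± 1.56 TPM), MTF1 (6.66 ± 0.0624 TPM) and SLC39A10 (2.36 ± 0.204 TPM) to MT1G (0.160 ± 0.160 TPM). No gene's libraries overlapped in TPM with those of its neighbour in this order, in any group. MT2A and MT1X thus made up most of the family's transcripts, with the exporter, the transcription factor and the importer far below them.

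The comparison of melanosome with control cells asks what treatment with melanosomes did to these genes. In it 4 metallothionein genes rose, and the transcription factor and both transporters did not pass the test. MT2A, the most abundant, had 333, 325 and 331 CPM in the control libraries and 629, 652 and 661 CPM in the melanosome libraries. Its groups lay far apart, at 1.96-fold (log2 fold change 0.97 ± 0.09 SE, edgeR adjusted p = 4.8e-06).

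MT1F, a low-abundance isoform, was at 5.70, 6.38 and 7.22 CPM in control and at 10.8, 11.5 and 11.8 CPM in melanosome libraries. All melanosome libraries were above all control libraries, at 1.77-fold (log2 fold change 0.82 ± 0.12 SE, edgeR adjusted p = 0.000149). MT1E was at 66.2, 63.9 and 61.5 CPM in control and at 89.98, 101 and 98.3 CPM in melanosome libraries. These did not overlap either, and the fold was 1.51 (log2 fold change 0.59 ± 0.06 SE, edgeR adjusted p = 2.02e-05). MT1X showed the smallest of these rises, from 175, 166 and 175 CPM to 195, 226 and 213 CPM. Its fold was 1.23 (log2 fold change 0.30 ± 0.07 SE, edgeR adjusted p = 0.00266), again with no overlap.

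**Figure D2:**
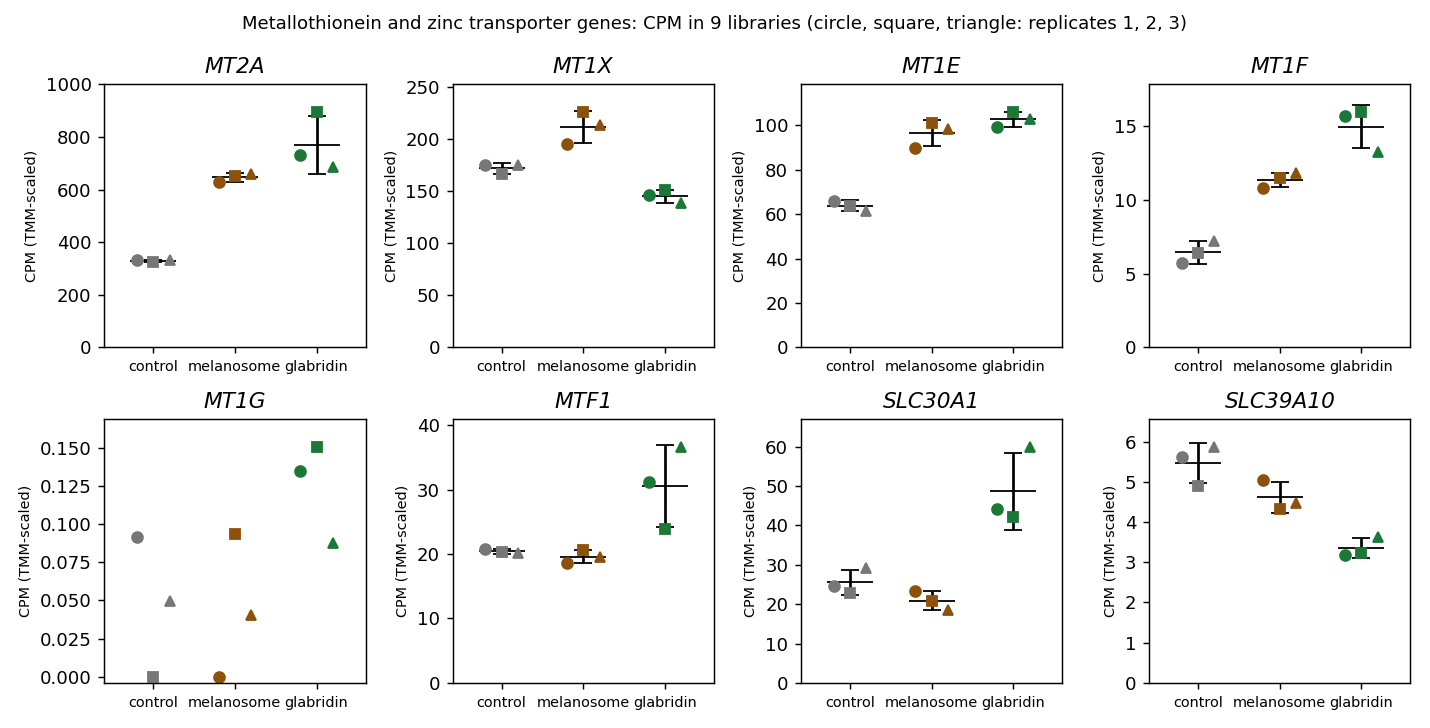
CPM on TMM-scaled library sizes (vertical axis, linear) of the 8 genes in each library, by group; circle, square and triangle are replicates 1, 2 and 3, and bars give mean and SD except for MT1G, where only the libraries are shown. MT2A, MT1E and MT1F are lowest in control, MT1X is highest in the melanosome group and lowest in the glabridin group, and SLC30A1 is highest in the glabridin group.

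MT1G had 4, 0 and 2 counts in control and 0, 4 and 2 counts in melanosome libraries, and did not pass the filter on low counts. All 9 of its counts were even, with 0 included, and the highest in any library was 6. Over all genes, 69.9% to 72.2% of the counts from 1 to 49 in a library were even, so mostly even low counts are not particular to MT1G. Being under the filter, MT1G was not tested in any comparison. Of the 7 other metallothionein genes listed (MT1A, MT1B, MT1H, MT1M, MT1HL1, MT3 and MT4), none passed the filter, and 5 had 0 counts in all 9 libraries. A count of 0 allows up to 3 counts, or 0.0581 to 0.0754 CPM per library, for counting error only. This takes the counts as independent, and the limit would be higher if both reads of each pair were counted. MT1B and MT1H had at most 3 and 1 counts in a library.

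MTF1 was at 20.8, 20.3 and 20.1 CPM in control and at 18.6, 20.6 and 19.5 CPM in melanosome libraries, which overlapped (log2 fold change -0.06 ± 0.13 SE, edgeR adjusted p = 0.706). The sign of this small difference turned with RLE, upper-quartile and no scaling factors. SLC30A1 was at 24.7, 22.8 and 29.1 CPM in control and at 23.3, 20.8 and 18.4 CPM in melanosome libraries, with overlap between replicate 1 of the melanosome group and control (log2 fold change -0.29 ± 0.15 SE, edgeR adjusted p = 0.111). Without glabridin replicate 3, which changes only the shared estimate of spread and the scaling, SLC30A1 passed the test at -0.29 (edgeR adjusted p = 0.0247). SLC39A10 was at 5.61, 4.91 and 5.86 CPM in control and at 5.06, 4.32 and 4.48 CPM in melanosome libraries (log2 fold change -0.24 ± 0.12 SE, edgeR adjusted p = 0.110), and its groups overlapped too.

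Of the 7 genes tested, 4 were called higher and 0 lower, against 29.5% of all 13912 tested genes higher, 33.0% lower and 62.5% in either direction. The share of called members was thus near that of all genes. The median log2 fold change was 0.30 over the 7 genes and -0.06 over all genes. Of the 18 melanocyte markers, 17 were higher and 1 lower in this comparison, and their part in the rise of the 4 metallothioneins was not tested. The cell of origin of a metallothionein transcript cannot be told from these counts.

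Glabridin and melanosome groups were compared to see what glabridin changed in melanosome-treated cells. Among the tested members, the exporter gene SLC30A1 rose most and MT1X fell most. MTF1 also rose and SLC39A10 also fell. SLC30A1 was at 44.1, 42.1 and 59.9 CPM in glabridin libraries, each above every melanosome and control library. It was 2.34-fold higher than in the melanosome group (log2 fold change 1.22 ± 0.15 SE, edgeR adjusted p = 0.000101).

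MTF1, the zinc sensor, was at 31.2, 23.9 and 36.6 CPM in glabridin libraries, a wider spread than in the other groups. In CPM its lowest glabridin library was still above the highest melanosome library, and the fold was 1.56 (log2 fold change 0.64 ± 0.13 SE, edgeR adjusted p = 0.00277). In TPM these groups overlapped, with glabridin replicate 2 at 7.36 TPM and melanosome replicate 2 at 7.52 TPM. The call was lost under 2 of 19 alternatives, among them limma on log2(TPM + 1) (log2 difference 0.395, limma adjusted p = 0.056). Within the glabridin group, MTF1 and SLC30A1 were both highest in replicate 3 and lowest in replicate 2. SLC39A10 was also highest in replicate 3, while MT2A, MT1X, MT1E and MT1F were highest in replicate 2. Summed melanocyte markers were lowest in replicate 3 and highest in replicate 2. Summed keratinocyte markers (9043, 10621 and 8538 CPM in replicates 1, 2 and 3) and leukocyte markers (115.0, 119.4 and 105.9 CPM) had that order too. Fibroblast markers were highest in replicate 1. A link of these sums to MTF1 or SLC30A1 was not tested.

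SLC39A10, the importer gene, was at 3.19, 3.24 and 3.64 CPM in glabridin libraries, all below the melanosome libraries. It fell 1.38-fold (log2 fold change -0.46 ± 0.13 SE, edgeR adjusted p = 0.0128), from 184 to 261 counts in melanosome to 129 to 166 counts in glabridin libraries. Without melanosome replicate 1 the call was lost (-0.39, edgeR adjusted p = 0.0545).

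The metallothioneins went different ways under glabridin. MT1X was at 146, 151 and 138 CPM, below every melanosome library and below every control library. It fell 1.46-fold against the melanosome group (log2 fold change -0.54 ± 0.07 SE, edgeR adjusted p = 9.66e-05) and was called under all 19 alternatives, from -0.73 to -0.49.

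MT1F was at 15.6, 16.0 and 13.3 CPM in glabridin libraries and rose 1.32-fold (log2 fold change 0.40 ± 0.11 SE, edgeR adjusted p = 0.0157), with no overlap. This call was lost under 6 of 19 alternatives, among them upper-quartile factors (0.29, edgeR adjusted p = 0.067), library totals alone (0.22, edgeR adjusted p = 0.122), and fits without glabridin replicate 1 (0.275, edgeR adjusted p = 0.145) or melanosome replicate 1 (0.36, edgeR adjusted p = 0.0585). MT2A was at 732, 896 and 686 CPM, highest in replicate 2. That library also had the highest summed melanocyte, keratinocyte and leukocyte markers of the glabridin group. A link of these sums to MT2A was not tested. The rise of MT2A by 1.19-fold passed narrowly (log2 fold change 0.25 ± 0.09 SE, edgeR adjusted p = 0.0354). This rise was lost under 15 of 19 alternatives, over which adjusted p ran from 0.00229 to 0.45. With library totals alone it was 0.07 (edgeR adjusted p = 0.450), and without glabridin replicate 1 it was 0.20 (edgeR adjusted p = 0.181). With the replicate number as a block it was 0.25 (edgeR adjusted p = 0.0504). A further rise of MT2A above the melanosome level thus depended on the scaling and on single libraries. MT1E was at 99.2, 106 and 103 CPM, overlapping the melanosome libraries (log2 fold change 0.09 ± 0.06 SE, edgeR adjusted p = 0.277), with a sign that turned under upper-quartile and no scaling factors. MT1G had 6, 6 and 4 counts in glabridin libraries, again under the filter.

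Of the 7 genes, 4 were called higher and 2 lower, against 23.7% of all tested genes higher, 20.2% lower and 43.9% in either direction. With library totals alone 2 were higher and 2 lower, and the median log2 change of all genes shifted by -0.18 against the TMM scale. The median log2 fold change was 0.25 over the 7 genes and 0.01 over all genes.

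**Figure D3:**
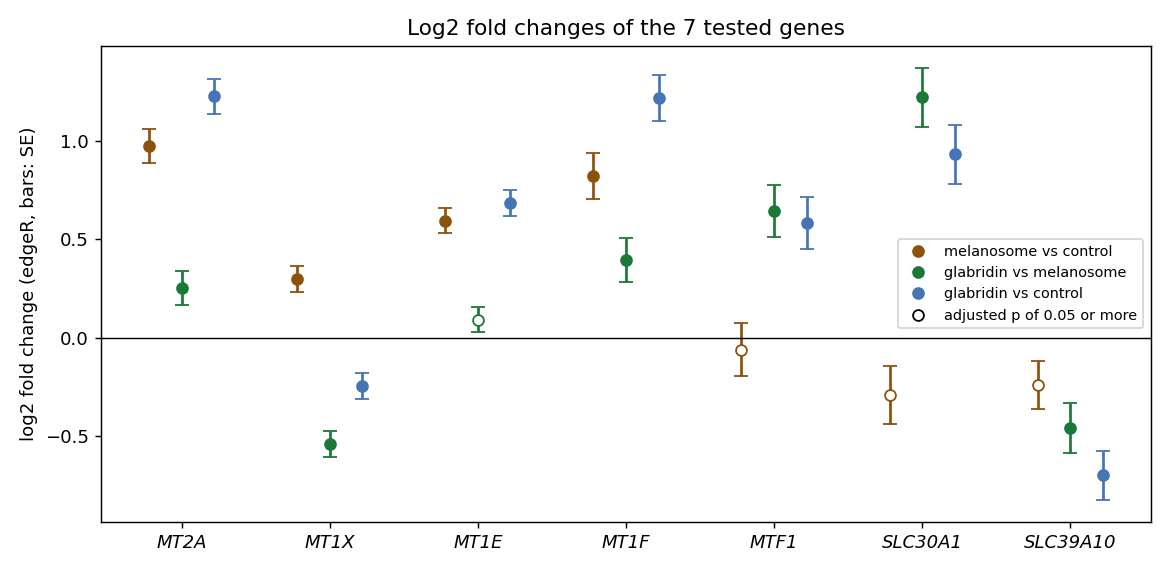
Log2 fold change of the 7 tested genes from the edgeR fit (points) with its SE (bars) in the 3 comparisons; open circles did not reach an adjusted p under 0.05. SLC30A1 at 1.22 and MT1X at -0.54 mark the extremes of glabridin vs melanosome, whereas MT2A at 0.97 leads melanosome vs control.

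The ratio of MT1X to MT2A counts within a library does not depend on the scaling between libraries. It was 0.525, 0.511 and 0.529 in control, 0.310, 0.347 and 0.323 in melanosome and 0.1999, 0.168 and 0.202 in glabridin libraries. The 3 groups did not overlap. The difference in mean log2 ratio was -0.68 for melanosome against control and -0.785 for glabridin against melanosome. Each had a two-sided exact permutation p = 0.1, the smallest that 3 against 3 libraries can give, so this design could not pass a threshold of 0.05. In TPM, MT1X made up 34.2% ± 0.473 (SD, n = 3) of the 5 metallothionein genes in control, 25.2% ± 0.975 in melanosome and 16.5% ± 1.20 in glabridin libraries, and MT2A made up 54.4% ± 0.275, 64.2% ± 1.16 and 72.4% ± 2.04. MT1E held a narrower range, with means of 9.94%, 9.01% and 9.16%. The summed TPM of the family was 1591 ± 19.9 in control, 2999.5 ± 37.7 in melanosome and 2774 ± 172 in glabridin libraries. The summed CPM was 572 ± 9.40, 967 ± 36.8 and 1034 ± 120 in the same order. The direction between melanosome and glabridin thus differed with the unit, and libraries of these groups overlapped in both units. The reads that MT1X could share with AC026461.1 and a pseudogene were not analysed here.

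**Figure D4:**
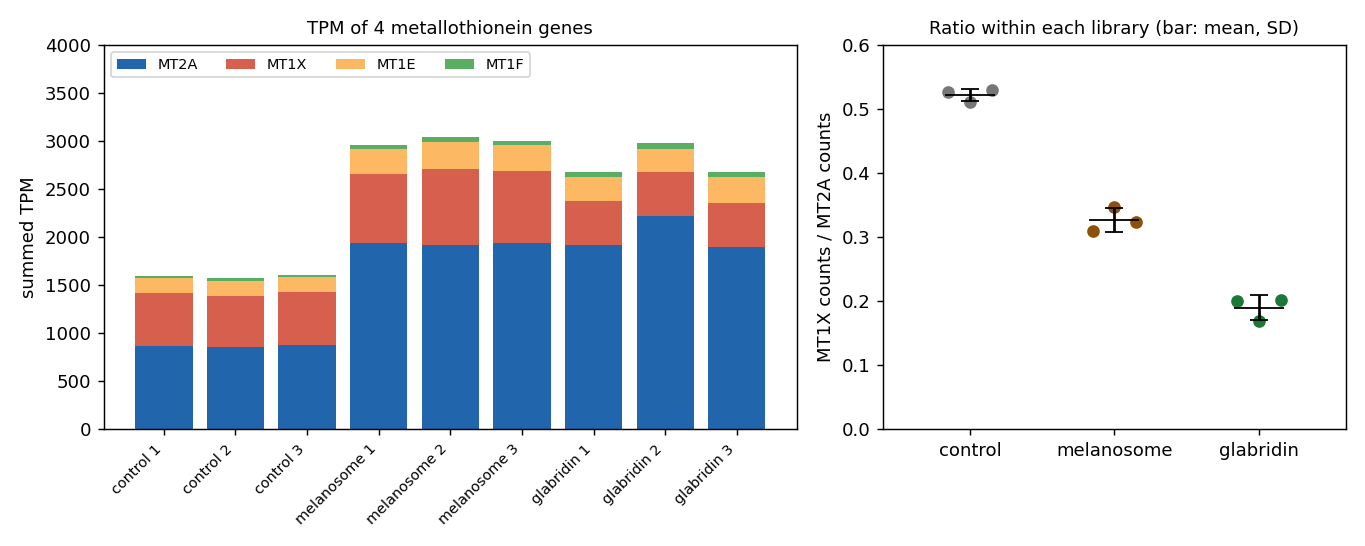
Left, summed TPM of MT2A, MT1X, MT1E and MT1F in each of the 9 libraries (stacked bars; MT1G, at most 0.50 TPM, is left out); right, counts of MT1X divided by counts of MT2A in each library, with mean and SD. The ratio lies between 0.511 and 0.529 in control, 0.310 and 0.347 in the melanosome group and 0.168 and 0.202 in the glabridin group.

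Set against untreated control, glabridin cells differed in all 7 tested genes, with 5 higher and 2 lower, against 70.3% of all genes called in either direction, 37.6% higher and 32.7% lower. This comparison shares its libraries with the other 2 and is given for the levels. MT2A was 2.34-fold (log2 fold change 1.23 ± 0.09 SE, edgeR adjusted p = 5e-07) and MT1F 2.33-fold higher (1.22 ± 0.12 SE, edgeR adjusted p = 4.8e-06). SLC30A1 was 1.91-fold, MT1E 1.61-fold and MTF1 1.499-fold higher, at log2 fold changes of 0.93 ± 0.15, 0.69 ± 0.06 and 0.58 ± 0.13 SE. SLC39A10 was 1.63-fold lower (log2 fold change -0.70 ± 0.13 SE) and MT1X 1.19-fold lower (-0.25 ± 0.07 SE, edgeR adjusted p = 0.00638). SLC30A1 was thus above and SLC39A10 below control with glabridin, while neither passed the test with melanosomes alone. The calls against control held under all 19 alternatives for each of the 7 genes. The other zinc importer genes mostly went the other way from SLC39A10: of 11 tested, 9 were called higher and 1 lower than control. Of 6 other zinc exporter genes tested, 2 were higher and 2 lower.

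The remaining zinc transporters give the setting of SLC30A1 and SLC39A10. Exporters of the ZnT (SLC30) family move zinc out of the cytosol, across the plasma membrane or into organelles, and importers of the ZIP (SLC39) family move it into the cytosol. Of 9 other ZnT genes, 6 were tested, and with melanosomes 1 rose and 2 fell, against 29.5% of all tested genes higher and 33.0% lower. Over the alternatives 1 to 4 were lower, with 4 in the fit without glabridin replicate 3. SLC30A3, which loads vesicles, was at 0.0635 ± 0.0551 CPM (SD, n = 3) in control, with at most 4 counts in a library, and at 0.983 ± 0.230 CPM in melanosome libraries (log2 fold change 3.92 ± 0.58 SE, edgeR adjusted p = 0.000196). With so few control counts the size is poorly fixed: it was 3.33 without control replicate 2, and 0.87 and 2.78 with limma on log2(TPM + 1) and log2(TPM + 0.1), though called in each. The Golgi transporter genes SLC30A7 and SLC30A6 fell, at -0.78 ± 0.14 and -0.51 ± 0.19 SE, the call of SLC30A6 being lost under 11 of 19 alternatives, among them RLE factors (-0.44, edgeR adjusted p = 0.0596) and the fit without control replicate 1 (-0.47, edgeR adjusted p = 0.106).

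Under glabridin, 2 of these 6 exporters were called higher and 0 lower against the melanosome group, with 23.7% of all tested genes higher and 20.2% lower. Upper-quartile factors, library totals, both limma fits and the fit without glabridin replicate 3 gave 1 higher and 1 lower, and DESeq2 gave 2 and 1. SLC30A5, which works in the early secretory pathway, was at 31.5 to 37.3 CPM in melanosome libraries and at 59.9 to 95.2 CPM in glabridin libraries. That is 2.25-fold (log2 fold change 1.17 ± 0.14 SE, edgeR adjusted p = 9.84e-05) beside 2.34-fold for SLC30A1. SLC30A7 was called at 0.39 ± 0.14 SE (edgeR adjusted p = 0.0449), with overlapping libraries and a call lost under 14 of 19 alternatives, among them RLE factors (0.34, edgeR adjusted p = 0.0647). SLC30A2 and SLC30A10 had 0 counts in every library, and SLC30A8 had 1 count in all.

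Of 13 other ZIP genes, 11 were tested, and with melanosomes 8 rose and 3 fell (8 and 2 on library totals, 8 and 1 with limma), against 29.5% of all tested genes higher and 33.0% lower. The split was 7 and 3 with a replicate block and in each fit that left out a control or melanosome library. The median log2 fold change of the 11 genes was 0.52, against -0.06 over all genes. SLC39A8, an importer of zinc and manganese, had 8 to 14 counts per control library and 245 to 423 in melanosome libraries, and was 26.8-fold higher (log2 fold change 4.75 ± 0.35 SE, edgeR adjusted p = 1.1e-06). The size depends on the pseudocount where one is used: limma gave a log2 difference of 1.91 on log2(TPM + 1) and 4.02 on log2(TPM + 0.1). SLC39A11 went from 29.7 ± 1.22 to 102.7 ± 3.39 CPM (1.79 ± 0.10 SE). The members that fell were SLC39A2, SLC39A4 and SLC39A9, at -0.49 ± 0.14, -0.42 ± 0.12 and -0.38 ± 0.065 SE, of which SLC39A4 was not called with library totals alone (-0.26, edgeR adjusted p = 0.062). On log2(TPM + 1), neither SLC39A4 (-0.22, limma adjusted p = 0.0574) nor SLC39A9 (-0.19, limma adjusted p = 0.0755) was called. The part of the melanocyte marker rise in these values was not tested.

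Under glabridin 6 of the 11 ZIP genes rose and 1 fell against the melanosome group. Over all tested genes 23.7% were higher and 20.2% lower. The split was 4 higher and 3 lower when only library totals were used, 4 and 4 with limma on log2(TPM + 1), and 6 and 4 without glabridin replicate 2. Their median log2 fold change was 0.20, against 0.01 over all genes. SLC39A7, which releases zinc from the endoplasmic reticulum, was at 160.5 to 177.9 CPM in melanosome and at 424 to 471 CPM in glabridin libraries. It was 2.62-fold higher (log2 fold change 1.39 ± 0.06 SE, edgeR adjusted p = 9.96e-08), after a smaller rise of 0.29 ± 0.06 SE with melanosomes. SLC39A2 fell 2.26-fold (-1.18 ± 0.14 SE), whereas SLC39A4, the main dietary zinc importer, and SLC39A9 rose, at 0.71 ± 0.12 and 0.60 ± 0.065 SE. The fall of SLC39A2 with glabridin stands beside that of SLC39A10, at -0.46 ± 0.13 SE.

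**Figure D5:**
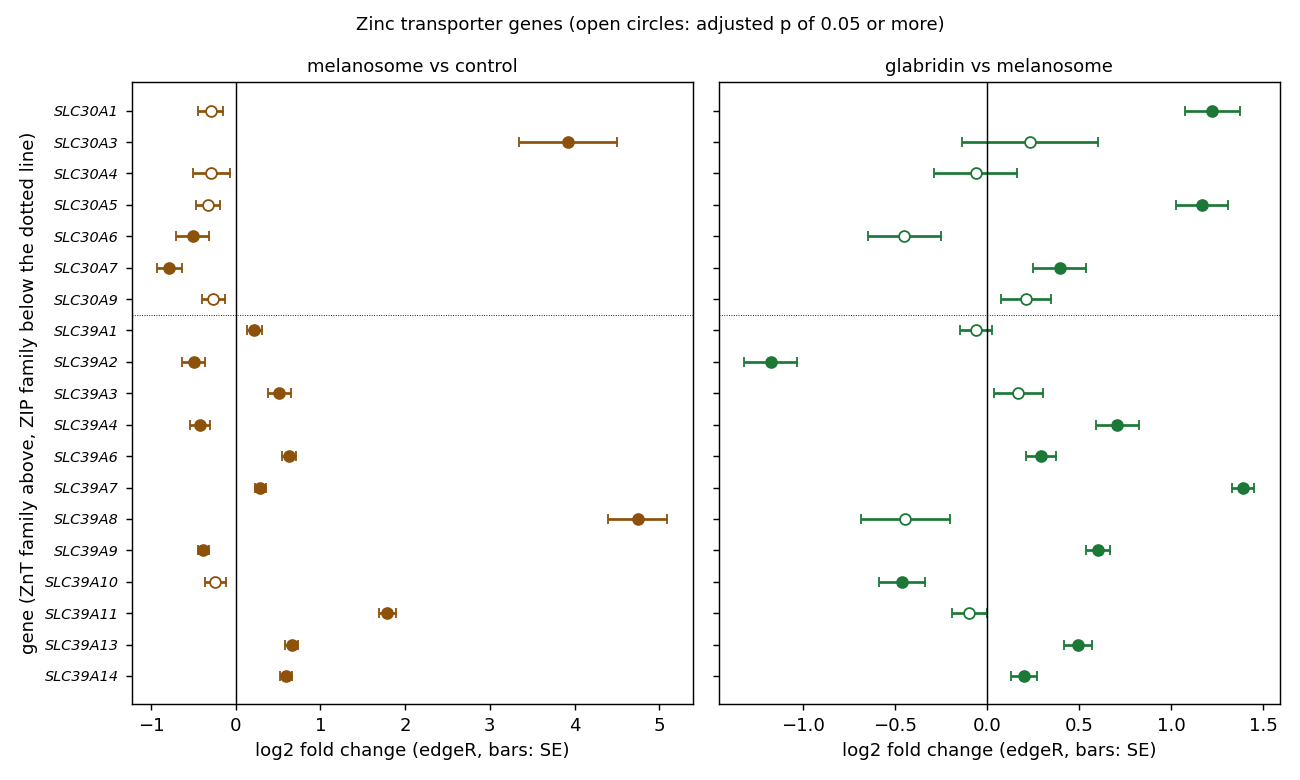
Log2 fold change (points) and SE (bars) from the edgeR fit for the ZnT (SLC30) and ZIP (SLC39) genes tested, with melanosome vs control on the left and glabridin vs melanosome on the right; the 2 panels have different horizontal scales, and open circles did not reach an adjusted p under 0.05. SLC39A8 at 4.75 and SLC30A3 at 3.92 stand out on the left, and SLC39A7 at 1.39, SLC30A1 at 1.22 and SLC30A5 at 1.17 on the right.

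Copper is the other metal that metallothioneins bind. Of 11 copper genes, 10 were tested. With melanosomes 2 rose and 2 fell (on library totals, 4 and 1), and with glabridin against melanosome 1 rose and 2 fell. Of all tested genes 62.5% and 43.9% were called in these comparisons. Over the alternatives 2 to 5 copper genes were higher and 1 to 2 lower with melanosomes. The number lower with glabridin was 0 without melanosome replicate 1 or replicate 3 and 4 with both limma fits. SLC31A1, the copper importer gene, rose in both, at 0.58 ± 0.07 and 0.62 ± 0.07 SE, from 78.2 ± 2.67 CPM in control to 116.5 ± 1.04 and then 178.9 ± 14.2 CPM. ATOX1, a cytosolic copper chaperone, rose with melanosomes (1.23 ± 0.165 SE), and ATP7A, a copper export pump that also supplies copper to tyrosinase, fell (-0.71 ± 0.11 SE).

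Genes nearest in pattern to each member were found by the root-mean-square difference of log2 CPM, each gene centred on its own mean over the 9 libraries. Nearest to MT2A of 13911 genes were PEA15 (0.037) and FLOT1 (0.039), and to MT1E MSN (0.055) and NSMCE1 (0.057). For MT1F they were ATAD3A (0.076) and ANO10 (0.084), and for MT1X DUS2 (0.059) and NCLN (0.062). No member was among these. MT1F stood at rank 90 from MT2A, at 0.125, and MT1X at rank 6031, at 0.603. For SLC30A1 the nearest were SIAH1 (0.084) and TSPAN13 (0.095), with MTF1 at rank 362 (0.288). MTF1 itself was nearest to IDH1 (0.065) and ZFP36L2 (0.074), and SLC39A10 to LYPD1 (0.066) and ITGA1 (0.072). These distances describe the 9 libraries and rest largely on 3 group levels.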

How the data were processed

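Poly(A) RNA of HaCaT cells was sequenced as strand-specific read pairs, per the labels' protocols. The authors deposited raw counts per gene, TPM and FPKM for each library, per the file headers, and a second TPM table with the same values (largest difference 0). FPKM as deposited by the authors was not used. The submitters' processing notes name hg38 as the build. Aligner, counting program and annotation: not given in the sources used here. Groups and replicate numbers came from the sample titles. Of 20263 identifiers, 20148 matched a symbol; positions and transcripts are from GENCODE release 29 (GRCh38), promoters from RefSeq (GRCh38.p14).

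The count test was edgeR's quasi-likelihood test (edgeR 4.0.16, R 4.3.3) in a single fit of all 9 libraries with no replicate block, after filterByExpr and with TMM scaling. Benjamini-Hochberg adjustment ran over the 13912 genes tested, and an adjusted p under 0.05 was called. The SE was derived from the F statistic. The labels do not say whether replicates are separate cultures. The p-values then reflect only variation among these libraries, possibly technical. The script was tested on simulated counts. Alternatives were other scaling factors, DESeq2 1.42.0, limma 3.58.1 on log2(TPM + 1) and log2(TPM + 0.1), no filter, the 2 compared groups only, a replicate block, each library left out in turn and, chosen after seeing the data, halved counts.

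All 8 members are named. Genes under other headings come from lists of metallothioneins, ZnT, ZIP and copper genes, with examples picked after their values were seen, and the 2 nearest genes in pattern per member. The members and lists were chosen with earlier results of these data known.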

Additional observations from a re-analysis of the deposited data

How the results depend on the processing

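Over the 7 tested genes, 3 comparisons and 19 alternatives, 362 of 399 values kept their direction and their side of the threshold, 24 lost the call, 1 gained it and 12 changed sign. Every change of sign was of a difference that was not called. For MTF1 with melanosomes the log2 value became 0.006 with RLE factors, 0.009 with upper-quartile factors, 0.106 with library totals, 0.02 with only the 2 groups compared, 0.006 with DESeq2, 0.104 and 0.118 with limma on log2(TPM + 1) and log2(TPM + 0.1), and with a library left out it ran from -0.1 (without melanosome replicate 2) to 0.014 (without glabridin replicate 1). For MT1E with glabridin it became -0.021 with upper-quartile factors, -0.087 with library totals, and -0.093 and -0.094 with limma. In glabridin vs melanosome, limma at either pseudocount called 3 members instead of 6, and with 1 library left out the number ran from 3 (without melanosome replicate 1) to 6. In melanosome vs control that range was 4 to 5, and in glabridin vs control 7 to 7. The cause of these changes was not tested.

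Scaling moved the balance of all genes. In melanosome vs control 47.2% of 8691 called genes were higher, and 66.0% with library totals, 68.5% and 69.1% with limma. In glabridin vs melanosome these were 54.0% of 6111, against 38.0% with upper-quartile factors, 29% with library totals, and 27.6% with both limma settings. Halving the counts, as if both reads of each pair had been counted, gave 4, 6 and 7 called members in the 3 comparisons, as reported.

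With the replicate number as a block, 4, 5 and 7 members were called, MT2A in glabridin vs melanosome being lost (adjusted p = 0.0504, edgeR), and genes called numbered 8255, 5523 and 9507. The numbers were not taken to pair the libraries, since the titles do not state that they mark a shared culture. Deviations of same-numbered libraries correlated between -0.234 and 0.05 over 9 pairs, and those of differently numbered libraries between -0.198 and 0.273.

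Depth limits MT1G and the other metallothionein genes with few or no counts, which were under the filter and were not tested.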
